A study of Mus musculus with 36 samples.

Results

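Mature microRNAs (miRNAs) were compared between wild-type and AGO134-/- mouse CD4 T cells cultured for 14 days under T helper 2 (Th2) conditions. The comparison took the libraries titled as day 14 Th2 cells of these genotypes from the AGO1/AGO3/AGO4 experiment. They were WT replicates 1, 2 and 3 and AGO134-/- replicates 2, 3 and 4, which made 6 of the 36 samples of the series. All 6 came from C57BL/6J mice. The cells were CD4+ TCRb+ spleen T cells that had been sorted, activated and polarised in vitro, and the series text calls the WT and AGO134-knockout mice littermates, naming for that comparison naive and day 7 cells. In the AGO134-/- genotype the genes of 3 of the 4 mouse Argonaute proteins (AGO1, AGO3 and AGO4) are knocked out, and the label names no Cre, no promoter and no T cell restriction. The labels give neither age nor sex, and do not say whether the replicates of a group were separate animals or cultures. Each p-value therefore speaks only of the spread among the libraries tested. For the main edgeR and limma tests these were the 22 libraries of the AGO1/AGO3/AGO4 experiment, and for the permutation tests these 6. Since miRNAs were the only RNAs counted, no Ago transcript was measured and the genotype labels could not be checked.

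Argonaute proteins hold the mature miRNA and carry it to its targets. Each miRNA is cut from a hairpin precursor as a duplex of a 5p and a 3p arm, of which Argonaute keeps 1 and usually discards the other, and a miRNA without Argonaute is short-lived. AGO2 is the family member with slicing activity that mammals cannot do without, and it remains in AGO134-/- cells. Target choice rests mainly on bases 2 to 8 from the 5′ end, the seed. In T cells, miRNA loading and turnover change strongly with activation, and miRNAs such as miR-155, miR-24, miR-27 and miR-10a are known to shape helper cell fate.

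Of the 63 changed miRNAs with a known sequence, 18 shared their seed with another that changed, and these are shown first because they include several of the largest changes. They are mature RefSeq sequences (GRCm38.p6), written 5′ to 3′ with the seed in capitals. A RefSeq sequence was matched by name for 306 of the 382 miRNAs tested and for 63 of the 75 that changed. The miRNAs with lower levels in AGO134-/- cells that shared a seed were the following.
miR-132-3p: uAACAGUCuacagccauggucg
miR-212-3p: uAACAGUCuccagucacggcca
miR-10a-5p: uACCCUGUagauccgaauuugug
miR-10b-5p: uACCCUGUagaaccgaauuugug
miR-148a-3p: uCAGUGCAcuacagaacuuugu
miR-152-3p: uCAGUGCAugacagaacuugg
miR-130a-3p: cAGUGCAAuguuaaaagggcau
miR-301a-3p: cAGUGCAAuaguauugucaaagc
The miRNAs with higher levels that shared a seed were the following.
miR-221-3p: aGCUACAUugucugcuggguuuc
miR-222-3p: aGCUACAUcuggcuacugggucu
miR-181a-5p: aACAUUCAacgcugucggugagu
miR-181b-5p: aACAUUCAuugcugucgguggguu
miR-15b-5p: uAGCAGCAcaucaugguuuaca
miR-16-5p: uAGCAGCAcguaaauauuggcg
let-7b-5p: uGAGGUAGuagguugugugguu
let-7g-5p: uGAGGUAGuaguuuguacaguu
miR-20b-5p: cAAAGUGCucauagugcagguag
miR-93-5p: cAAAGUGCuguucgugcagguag
The tested miRNAs with a sequence held 242 seeds. Most of these seeds had 1 tested member, so 2 changes could not occur in them. In 9 of the 242 seeds at least 2 miRNAs changed, and within each of the 9 all changed members moved the same way, in 4 seeds lower and in 5 higher. The changed members were 2 of 11 tested for the let-7g-5p seed, 2 of 6 for miR-93-5p, 2 of 5 for miR-16-5p and 2 of 4 for miR-181a-5p. They were 2 of 3 for miR-130a-3p and miR-148a-3p, and 2 of 2 for miR-132-3p, miR-10a-5p and miR-221-3p. No share among seeds with 2 or more tested members was computed. miR-10a-5p and miR-10b-5p differ in 1 of 23 bases, miR-148a-3p and miR-152-3p in 3 of the 21 compared from the 5′ end, miR-181a-5p and miR-181b-5p in 3 of 23, miR-20b-5p and miR-93-5p in 3 of 23, let-7b-5p and let-7g-5p in 4 of 22, and miR-132-3p and miR-212-3p in 5 of 22. Reads from such close relatives can be shared in counting, so their separate values are uncertain. miR-221-3p and miR-222-3p differ in 12 of 23 bases, miR-130a-3p and miR-301a-3p in 10 of 22 and miR-15b-5p and miR-16-5p in 8 of 22.

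Libraries held between 177814 and 265008 miRNA counts, with a mean of 260868 ± 5700 in WT and 210697 ± 30643 in AGO134-/- cells (SD, n = 3 and 3). The exact two-sided permutation test of that difference gave p = 0.1, the smallest value that 3 against 3 libraries allow. Entries named STD, which name no miRNA, held 38.2 ± 1.32% of counts in WT and 43.2 ± 2.11% in AGO134-/- libraries (exact permutation p = 0.1). That share is of all counts in a file, with every locus entry of a name included. The miRNA counts above take 1 entry per name, so the share does not follow from them. The number of STD counts was 194091 ± 8046 in WT and 191779 ± 12455 in AGO134-/- libraries (exact permutation p = 0.8). A count of 0 is compatible with up to 3 counts, which is 11.3 to 16.9 counts per 1e6 miRNA counts (CPM) in these libraries and covers counting error only. The number of miRNAs with a count ran from 722 to 737 in WT and from 595 to 676 in AGO134-/- libraries, which were also the shallower ones. On the first principal component of the 6 libraries, 56.1% of the variance, the genotypes stood apart.

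Of 382 miRNAs tested, edgeR's quasi-likelihood test with Benjamini-Hochberg adjustment called 75 changed at an adjusted p under 0.05, which is 19.6%. Levels were higher in AGO134-/- cells for 34 (8.9%) and lower for 41 (10.7%), and 40 changed at least 2-fold, 10 upward and 30 downward. The called miRNAs with higher levels had a median WT level of 1600 CPM and a median log2 fold change of 0.64. Those with lower levels had a median WT level of 280 CPM, against 249 CPM over all tested, and a median log2 fold change of -1.22. The 3 AGO134-/- libraries lay wholly above or wholly below the 3 WT libraries for 71 of the 75, against 143 of all 382 (37.4%).

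Each change is a change of share among the miRNAs counted in a library. Scaling to the STD counts instead moved the median log2 fold change of all tested miRNAs from 0.005 to -0.44, and library size alone moved it to -0.15. With STD scaling 72 miRNAs were called lower and 2 higher. The values of miR-140-3p and miR-93-5p then turned negative (-0.04 and -0.12). Rises are therefore reported as changes relative to the bulk of miRNAs. Of the 75 calls, 24 held under each of 14 other settings, and 36 (22 lower and 14 higher) under each except STD scaling. Where the settings that ended a call are listed, STD scaling and the replicate block are not repeated.

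**Figure D1:**
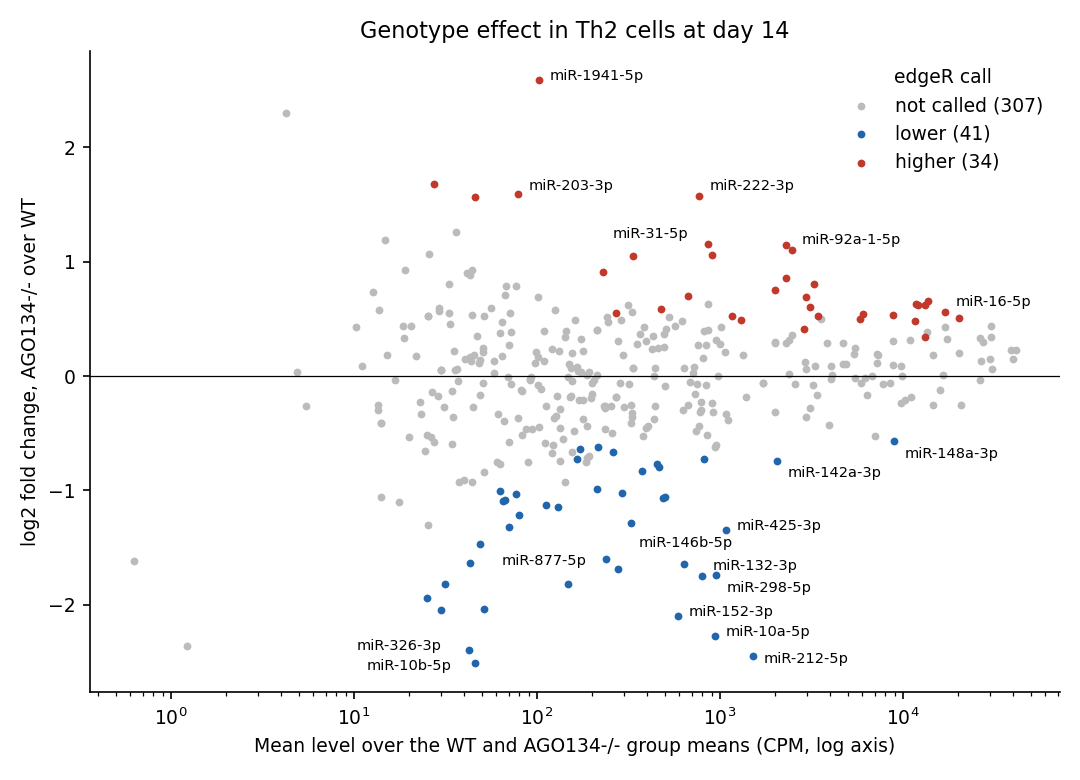
log2 fold change of each tested miRNA between AGO134-/- and WT Th2 cells at day 14 against its mean level in CPM on a log axis, with called miRNAs in colour. The 41 lower calls reach -2.51 and lie mostly under 1000 CPM, while many of the 34 higher calls are small changes at high levels.

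The largest loss with deep counts was that of the miR-132 and miR-212 cluster. These neighbouring hairpins are co-transcribed from chromosome 11 (GRCm38), miR-212 at chr11:75173388-75173478 and miR-132 at chr11:75173682-75173747 on the plus strand, in an intron of 1700016P03Rik, and are known as targets of the transcription factor CREB that stimulation induces. All 4 mature products fell. The level of miR-212-5p was 2592, 2398 and 2668 CPM in the WT libraries and 303, 535 and 564 CPM in the AGO134-/- libraries. The log2 fold change of miR-212-5p was -2.45 with SE 0.22 (edgeR adjusted p = 3.57e-09). That is 5.47-fold lower, and the groups were far apart. miR-212-3p was counted at 312, 167 and 213 CPM in WT replicates 1, 2 and 3 and at 56.9, 58.7 and 77.7 CPM in AGO134-/- replicates 2, 3 and 4. For miR-212-3p this gave a log2 fold change of -1.81 (SE 0.29, adjusted p = 2.76e-05). In WT libraries miR-132-3p stood at 1676, 1000.3 and 993 CPM, and in AGO134-/- libraries at 313, 437 and 352 CPM. WT replicate 1 stood above the other WT libraries, and the AGO134-/- libraries lay below all 3. edgeR estimated a log2 fold change of -1.75 with SE 0.28 for miR-132-3p (adjusted p = 2.76e-05). The partner strand miR-132-5p stood at 188 ± 66.4 against 465 ± 24.5 CPM in WT (SD, n = 3 and 3) (-1.28, adjusted p = 0.000138). The 4 calls held under all 14 other settings. miR-212-3p and miR-132-3p carry the same AACAGUC seed, whereas miR-212-5p has another seed, as its sequence shows.
miR-212-5p: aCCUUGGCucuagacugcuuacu

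**Figure D2:**
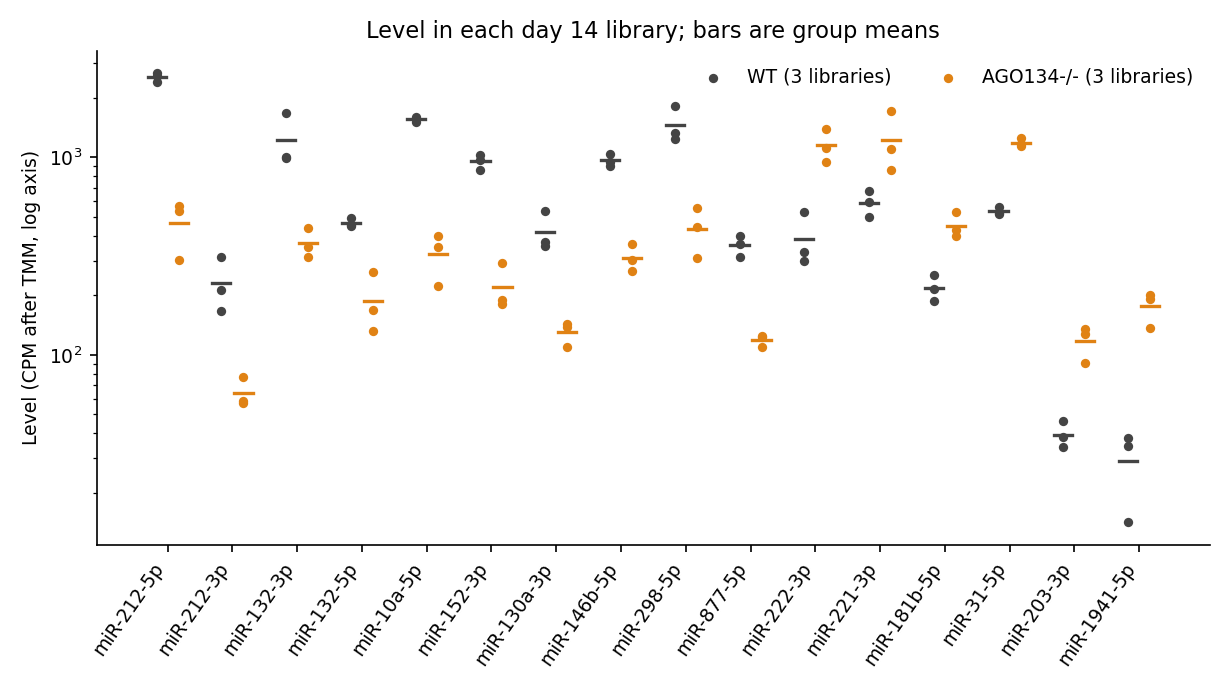
Level (CPM after TMM, log axis) of 16 miRNAs in each of the 3 WT and 3 AGO134-/- day 14 libraries; points are libraries and bars are group means. The 4 products of the miR-132 and miR-212 cluster, miR-10a-5p, miR-152-3p, miR-130a-3p, miR-146b-5p, miR-298-5p and miR-877-5p lie lower in every AGO134-/- library, and miR-222-3p, miR-221-3p, miR-181b-5p, miR-31-5p, miR-203-3p and miR-1941-5p higher.

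Both measured members of the miR-10 family fell. miR-10a lies among the Hoxb genes at chr11:96317165-96317274 (plus strand, between annotated genes) and miR-10b in introns of Hoxd3 and Hoxd4 at chr2:74726070-74726137. In T cells miR-10a is known from regulatory T cells, where it restrains conversion to follicular helper cells. miR-10a-5p had levels of 1558, 1603 and 1515 CPM in WT and 223, 398 and 352 CPM in AGO134-/- libraries. miR-10a-5p thus changed by -2.28 on the log2 scale (SE 0.31, adjusted p = 2.37e-06). miR-10b-5p was close to the limit of 3 counts in AGO134-/- cells, with 14, 16 and 35 counts in WT and 2, 3 and 3 in AGO134-/- libraries, and its log2 fold change was -2.51 with SE 0.58 (adjusted p = 0.00191). As the sequences differ in 1 base, reads of miR-10a-5p may be counted for miR-10b-5p, which was not tested.

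The miR-148 and miR-152 family, which shares the CAGUGCA seed and is known to target the DNA methyltransferase Dnmt1, split by member. miR-152 is encoded in an intron of Copz2 (chr11:96850393-96850465, plus strand). Levels of miR-152-3p were 968, 868 and 1032 CPM in WT against 180.2, 189 and 290.2 CPM in AGO134-/- libraries. The log2 fold change of miR-152-3p was -2.10 with SE 0.27 (edgeR adjusted p = 1.07e-06). miR-148a-3p, with more counts, fell by less. The level of miR-148a-3p was 10644, 10526 and 10827 CPM in the WT libraries and 7141, 6388 and 8056 CPM in the AGO134-/- libraries. For miR-148a-3p this gave a log2 fold change of -0.57 (SE 0.15, adjusted p = 0.00793). Its partner strand miR-148a-5p also fell (-0.73, adjusted p = 0.0339), whereas miR-148b-3p had a value of -0.16 (adjusted p = 0.463). The call of miR-148a-3p ended without AGO134-/- replicate 3 (-0.64 to -0.47 over the fits without 1 library). The miR-148a-5p call ended without WT replicate 1 or 2 or AGO134-/- replicate 2 or 3, in DESeq2 or without a filter (-0.85 to -0.58 over the fits without 1 library).

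In the miR-130 and miR-301 family 3 of 6 tested members fell and none rose (median -0.82), against 10.7% of all tested lower and 8.9% higher. miR-130a comes from chr2:84741115-84741178 (minus strand, between annotated genes), and miR-301a from an intron of Ska2 (chr11:87113004-87113089). miR-130a-3p was counted at 357, 371 and 532 CPM in WT replicates 1, 2 and 3 and at 109, 143 and 139 CPM in AGO134-/- replicates 2, 3 and 4. edgeR estimated a log2 fold change of -1.69 with SE 0.25 for miR-130a-3p (adjusted p = 6.6e-06). miR-301a-3p fell from 676 ± 53.7 to 325 ± 15.5 CPM (-1.06, adjusted p = 0.000152) and miR-301b-3p from 280.3 ± 9.98 to 144 ± 27.7 CPM (-0.99, adjusted p = 0.00153). miR-130b-3p went the other way without passing the test (0.29, adjusted p = 0.0793). The 3 calls held under all 14 other settings.

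miR-146a and miR-146b, both induced through NF-kB and known to repress Traf6 and Irak1, have the same seed and mature sequences that differ in 2 of 22 bases.
miR-146a-5p: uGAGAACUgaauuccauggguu
miR-146b-5p: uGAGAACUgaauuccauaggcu
miR-146b-5p fell and miR-146a-5p did not pass the test. In WT libraries miR-146b-5p stood at 909, 951 and 1036 CPM, and in AGO134-/- libraries at 266, 365 and 302 CPM. miR-146b-5p thus changed by -1.64 on the log2 scale (SE 0.19, adjusted p = 3.97e-07). miR-146a-5p had levels of 6552, 6847 and 7123 CPM in WT and 6373, 9361 and 7545 CPM in AGO134-/- libraries. The groups overlapped, at a log2 fold change of 0.18 (SE 0.14, adjusted p = 0.372). miR-146b comes from an intron of Mfsd13a (chr19:46342762-46342870).

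Other named losses came from hairpins on many chromosomes. Levels of miR-298-5p were 1239, 1330.0 and 1823 CPM in WT against 308, 443 and 556 CPM in AGO134-/- libraries. miR-298 lies in the imprinted Gnas region, and this difference was -1.74 on the log2 scale (SE 0.24, adjusted p = 3.66e-06). Of its neighbours, miR-296-5p (-0.34, adjusted p = 0.562) and miR-296-3p (-0.25, adjusted p = 0.387) did not pass. The level of miR-877-5p was 312, 364 and 401 CPM in the WT libraries and 109, 124 and 123 CPM in the AGO134-/- libraries. miR-877 is a mirtron, released from an intron of Abcf1 by splicing in place of Drosha, and this arm fell (-1.60, SE 0.20, adjusted p = 1.07e-06). The other arm, miR-877-3p, averaged 70.1 CPM in WT and 69.3 CPM in AGO134-/- libraries (-0.006) and was not called. The change of the miR-877 arm ratio did not pass (-1.63, limma adjusted p = 0.111). Both arms of miR-33, which sits in an intron of the sterol regulator Srebf2 and represses the cholesterol exporter Abca1, fell. miR-33-5p was at 24, 17 and 28 counts in WT and 8, 2 and 2 in AGO134-/- libraries (-2.03, adjusted p = 0.00258) and miR-33-3p changed by -1.03 (adjusted p = 0.0227). miR-326-3p, from an intron of Arrb1 and known from Th17 cells, had 26, 14 and 20 against 3, 2 and 3 counts (-2.40, adjusted p = 0.000237). miR-98-3p (-2.04, adjusted p = 0.0227), miR-29a-5p (-1.94, adjusted p = 0.00973), miR-1927 (-1.82, adjusted p = 0.023) and miR-7059-5p (-1.64, adjusted p = 0.0318) fell at levels under 100 CPM in both groups. AGO134-/- replicate 3 held 8 counts of miR-7059-5p, against 1 and 3 in the other libraries of that group. miR-33-3p was no longer called without WT replicate 3 or AGO134-/- replicate 3 or 4 (-1.19 to -0.84 over the fits without 1 library). For miR-98-3p the call ended without WT replicate 1 or 3 or AGO134-/- replicate 3 or 4 (-2.23 to -1.83 over the fits without 1 library). The call of miR-29a-5p ended without AGO134-/- replicate 4 (-2.29 to -1.48 over the fits without 1 library). The miR-1927 call ended without WT replicate 2 or AGO134-/- replicate 2 or 4 (-2.36 to -1.49 over the fits without 1 library). miR-7059-5p was no longer called without WT replicate 1, 2 or 3 or AGO134-/- replicate 2 or 4 or in DESeq2 (-2.76 to -1.14 over the fits without 1 library). The calls of miR-298-5p, miR-877-5p, miR-33-5p and miR-326-3p held under all 14 other settings.

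Among the miRNAs with higher levels, the miR-221 and miR-222 cluster stood out by moving whole. The hairpins lie together on chromosome X (miR-221 at chrX:19146294-19146388 and miR-222 at chrX:19146893-19146971, minus strand), and the shared seed is known to target the cell cycle inhibitor Cdkn1b. miR-222-3p was counted at 531, 333 and 298 CPM in WT replicates 1, 2 and 3 and at 1394, 952 and 1119.9 CPM in AGO134-/- replicates 2, 3 and 4. Every AGO134-/- library was above every WT library. The log2 fold change of miR-222-3p was 1.58 with SE 0.20 (edgeR adjusted p = 1.06e-06). In WT libraries miR-221-3p stood at 677, 591 and 500.2 CPM, and in AGO134-/- libraries at 1712, 860.4 and 1104 CPM. AGO134-/- replicate 2 was the highest, and the groups did not overlap. For miR-221-3p this gave a log2 fold change of 1.06 (SE 0.21, adjusted p = 0.000283). miR-221-5p rose as well (0.91, adjusted p = 0.00408), so all 3 tested products of the cluster were called. Their values stayed above 0 with STD scaling (1.14 for miR-222-3p, 0.63 for miR-221-3p and 0.46 for miR-221-5p), under which miR-222-3p alone of the 3 was still called.

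In the miR-181 family, which tunes T cell receptor signalling by repressing phosphatases, 2 of 9 tested members rose and none fell (median 0.33, or -0.09 with STD scaling), against 8.9% of all tested higher. miR-181b-5p had levels of 215, 254 and 188 CPM in WT and 526, 398 and 429 CPM in AGO134-/- libraries. edgeR estimated a log2 fold change of 1.05 with SE 0.16 for miR-181b-5p (adjusted p = 2.33e-05). Levels of miR-181a-5p were 2651, 2243 and 1848 CPM in WT against 4059, 3331 and 3474 CPM in AGO134-/- libraries. For both miRNAs every AGO134-/- library lay above every WT library. miR-181a-5p thus changed by 0.69 on the log2 scale (SE 0.19, adjusted p = 0.00806). miR-181c-5p (0.04, adjusted p = 0.954) and miR-181d-5p (0.31, adjusted p = 0.264), with the same ACAUUCA seed, did not pass. Of the passenger strands, miR-181a-1-3p had 0.71 (adjusted p = 0.126), miR-181c-3p -0.45 (adjusted p = 0.261) and miR-181d-3p 0.33 (adjusted p = 0.724). miR-181a-2-3p and miR-181b-1-3p had at most 3 counts in any day 14 library, and no fold is given for them. miR-181a-5p and miR-181b-5p are each made at 2 loci, on chromosomes 1 and 2, and the mature counts cannot tell these loci apart. For miR-181a-5p the call ended without WT replicate 2 or 3, in DESeq2, with DESeq2 size factors or with all locus entries (0.55 to 0.83 over the fits without 1 library).

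Single miRNAs with large rises were miR-1941-5p, miR-203-3p and miR-31-5p. miR-1941-5p (chr15:101369352-101369434) rose from 10, 10 and 4 counts in WT to 29, 31 and 47 in AGO134-/- libraries. The log2 fold change of miR-1941-5p was 2.59 with SE 0.40 (edgeR adjusted p = 3.93e-05). It was the largest rise and held under all 14 other settings. The level of miR-203-3p was 38.2, 34.1 and 46.1 CPM in the WT libraries and 128, 91.3 and 135 CPM in the AGO134-/- libraries. For miR-203-3p this gave a log2 fold change of 1.59 (SE 0.29, adjusted p = 0.000138). miR-203 is best known from the epidermis, and its values are set beside other epithelial markers below. miR-31-5p was counted at 521, 519 and 561 CPM in WT replicates 1, 2 and 3 and at 1257, 1167 and 1140.4 CPM in AGO134-/- replicates 2, 3 and 4. The groups did not overlap, and the libraries of each group lay close together. edgeR estimated a log2 fold change of 1.15 with SE 0.15 for miR-31-5p (adjusted p = 1.07e-06). miR-31 is known in T cells for repressing Foxp3. miR-151-5p and miR-151-3p, from an intron of the kinase gene Ptk2, rose together (0.86, adjusted p = 0.000138, and 0.75, adjusted p = 0.0122), and miR-1198-5p rose by 0.81 (adjusted p = 0.000111). miR-7667-5p (1.68, adjusted p = 0.0214) and miR-128-1-5p (1.57, adjusted p = 0.0104) rose at levels under 100 CPM, most in AGO134-/- replicate 4 with 17 and 23 counts. miR-128-3p, the other tested product of the miR-128 hairpins, had -0.02 and was not called. The call of miR-151-3p ended without WT replicate 1 or with library size alone (0.63 to 0.86 over the fits without 1 library). The miR-7667-5p call ended without WT replicate 1 or AGO134-/- replicate 4 or in DESeq2 (1.04 to 1.93 over the fits without 1 library). miR-128-1-5p was no longer called without WT replicate 2 or AGO134-/- replicate 4 (1.21 to 1.92 over the fits without 1 library).

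**Figure D3:**
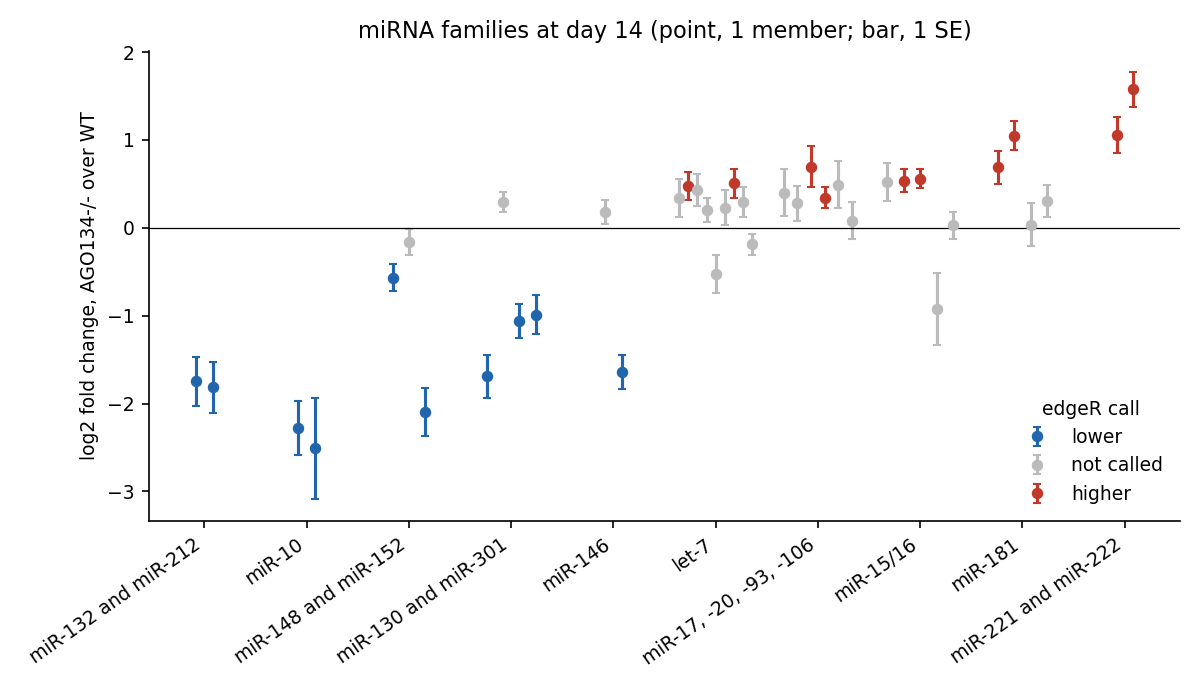
log2 fold change (point, 1 member; bar, 1 SE) between AGO134-/- and WT cells at day 14 for 10 miRNA families, coloured by call. Members of the miR-132 and miR-212, miR-10, miR-130 and miR-301 and miR-148 and miR-152 groups reach far below 0, while called let-7, miR-15/16, miR-17, miR-20, miR-93 and miR-106, miR-181 and miR-221 and miR-222 members lie above 0.

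The oncogenic miR-17-92 cluster, which activation induces and which promotes proliferation, did not move as a whole, with 2 of 9 tested products higher and none lower (median 0.28, or -0.17 with STD scaling). This and the counts of the next families stand against 8.9% of all tested miRNAs higher. Both that rose came from the miR-92a-1 hairpin (chr14:115044427-115044506, in an exon of the host transcript Mir17hg). In WT libraries miR-92a-1-5p stood at 1503, 1701 and 1476 CPM, and in AGO134-/- libraries at 2200.1, 4133 and 3736 CPM. miR-92a-1-5p thus changed by 1.10 on the log2 scale (SE 0.19, adjusted p = 6.33e-05). miR-92a-3p had levels of 1003, 1663 and 1625 CPM in WT and 2475, 4002 and 3016 CPM in AGO134-/- libraries. The log2 fold change of miR-92a-3p was 1.14 with SE 0.38 (edgeR adjusted p = 0.0318). For miR-92a-3p the call ended without WT replicate 1, 2 or 3 or AGO134-/- replicate 3 or 4, in DESeq2 or with DESeq2 size factors (0.95 to 1.29 over the fits without 1 library). miR-92a-3p is also made from a locus on chromosome X. Values of the other members were 0.40 for miR-17-5p (adjusted p = 0.305), 0.36 for miR-17-3p (adjusted p = 0.0585), 0.28 for miR-20a-5p (adjusted p = 0.343), -0.19 for miR-18a-5p (adjusted p = 0.372), -0.26 for miR-18a-3p (adjusted p = 0.301), -0.92 for miR-19a-3p (adjusted p = 0.0585) and -0.33 for miR-19b-3p (adjusted p = 0.323). In the paralogous miR-106b-25 cluster, within Mcm7, 2 of 5 rose (median 0.34, or -0.12 with STD scaling). They were miR-106b-3p (0.50, adjusted p = 0.00408) and miR-93-5p (0.34, adjusted p = 0.0457, but -0.12 with STD scaling). miR-20b-5p, of the third paralog, rose by 0.70 (adjusted p = 0.0305). The call of miR-106b-3p ended with library size alone or without a filter. The miR-93-5p call ended without WT replicate 1, 2 or 3 or AGO134-/- replicate 2 or 3, in DESeq2, with DESeq2 size factors, with all locus entries, with library size alone or without a filter (0.27 to 0.44 over the fits without 1 library). miR-20b-5p was no longer called without WT replicate 2 or 3 or AGO134-/- replicate 2, in DESeq2, with DESeq2 size factors, with all locus entries, with the day 14 libraries fitted alone or with library size alone (0.40 to 0.92 over the fits without 1 library).

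Several of the most abundant lymphocyte miRNAs rose by less than 2-fold. For the let-7 family, which holds back growth and metabolism genes in resting cells, 2 of 10 rose and none fell (median 0.32, or -0.16 with STD scaling), where 8.9% of all tested rose. Levels of let-7g-5p were 17765, 16475 and 16134 CPM in WT against 22622, 27593 and 21303 CPM in AGO134-/- libraries. For let-7g-5p this gave a log2 fold change of 0.51 (SE 0.17, adjusted p = 0.032). let-7b-5p rose by 0.48 (adjusted p = 0.0334), while let-7e-5p (-0.52, adjusted p = 0.0871) and miR-98-5p (-0.19, adjusted p = 0.295) had negative values. In the miR-15/16 clusters, which repress cyclin genes and Bcl2, 2 of 8 rose and none fell (median 0.48, or 0.03 with STD scaling). The level of miR-16-5p was 14357, 13735 and 13133 CPM in the WT libraries and 20417, 21263 and 19104 CPM in the AGO134-/- libraries. edgeR estimated a log2 fold change of 0.56 with SE 0.11 for miR-16-5p (adjusted p = 0.000275). miR-16-5p is made at loci on chromosomes 3 and 14, which its count cannot tell apart. miR-15b-5p, from the chromosome 3 locus, rose by 0.54 (adjusted p = 0.00303). miR-150-5p, a marker of mature lymphocytes that represses Myb, rose in the fit. miR-150-5p was counted at 11147, 11882 and 8142 CPM in WT replicates 1, 2 and 3 and at 17079, 18936 and 11947 CPM in AGO134-/- replicates 2, 3 and 4. The groups did not overlap, but the lowest AGO134-/- library lay only just above the highest WT library. miR-150-5p thus changed by 0.62 on the log2 scale (SE 0.17, adjusted p = 0.0105). Its partner strand miR-150-3p had 0.29 and was not called. miR-30d-5p (0.66, adjusted p = 0.00408), miR-30b-3p (0.49, adjusted p = 0.0227), miR-26b-5p (0.52, adjusted p = 0.0104), miR-342-3p (0.54, adjusted p = 0.00396) and miR-503-5p (0.52, adjusted p = 0.0432) rose as well, as 2 of 10 tested members of the miR-30 family, 1 of 3 of the miR-26 family, miR-342 itself, and 1 of 10 of the miR-322 and miR-503 cluster. For let-7g-5p the call ended without WT replicate 1, 2 or 3 or AGO134-/- replicate 3 or 4, in DESeq2, with DESeq2 size factors, with all locus entries or without a filter (0.41 to 0.59 over the fits without 1 library). The call of let-7b-5p ended without WT replicate 1, 2 or 3 or AGO134-/- replicate 2, 3 or 4, in DESeq2, with DESeq2 size factors, with all locus entries, with library size alone or without a filter (0.38 to 0.58 over the fits without 1 library). The miR-150-5p call ended without WT replicate 1 or 3 or AGO134-/- replicate 3, in DESeq2, with DESeq2 size factors or with all locus entries (0.46 to 0.80 over the fits without 1 library). miR-30d-5p was no longer called without WT replicate 3 or AGO134-/- replicate 3 (0.49 to 0.83 over the fits without 1 library). For miR-30b-3p the call ended without WT replicate 1 or 3 or AGO134-/- replicate 4, with all locus entries, with library size alone or without a filter (0.38 to 0.57 over the fits without 1 library). The call of miR-26b-5p ended without WT replicate 1 or 3 or AGO134-/- replicate 3, in DESeq2, with DESeq2 size factors, with all locus entries or without a filter (0.47 to 0.57 over the fits without 1 library). The miR-342-3p call ended without WT replicate 3 or with library size alone (0.41 to 0.67 over the fits without 1 library). miR-503-5p was no longer called without WT replicate 1 or 3 or AGO134-/- replicate 2 or 4, with all locus entries, with library size alone or without a filter (0.42 to 0.66 over the fits without 1 library). For miR-15b-5p the call ended with library size alone.

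The counts of other clusters known from T cell biology stand against 19.6% of all tested miRNAs called. In the miR-23-27-24 clusters, whose miR-24 and miR-27 limit Th2 cytokines by repressing Il4 and Gata3, 1 of 11 products fell and none rose (median -0.0006). The 1 was miR-24-2-5p, a passenger strand (333 ± 15.9 against 568 ± 20.5 CPM in WT (SD, n = 3 and 3), -0.77, adjusted p = 0.00235), while miR-24-3p (0.01, adjusted p = 0.971) and miR-27a-3p (-0.07, adjusted p = 0.807) had values near 0. miR-155-5p, which represses Socs1 and the Il4 activator Maf, differed by -0.12 (SE 0.14, adjusted p = 0.565) and miR-21a-5p by 0.15 (SE 0.14, adjusted p = 0.481). None of 5 tested products of the miR-183-96-182 cluster was called (median -0.04), and none of 20 from the Sfmbt2 intron cluster (median -0.07). In the miR-29 family, which represses Tbx21 and Ifng, the 2 of 6 that fell were passenger strands, miR-29a-5p and miR-29b-2-5p (-1.22, adjusted p = 0.0176). The guide strands miR-29a-3p (0.19, adjusted p = 0.403), miR-29b-3p (-0.32, adjusted p = 0.371) and miR-29c-3p (-0.66, adjusted p = 0.129) did not pass. Of 8 let-7 passenger strands 1 fell, miR-98-3p, and of 6 members of the miR-99, miR-100 and miR-125 families 1 fell, miR-99b-3p (-1.14, adjusted p = 0.0048). The call of miR-29b-2-5p ended without WT replicate 3 or AGO134-/- replicate 2 or 3 (-1.55 to -0.97 over the fits without 1 library).

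Read by function, the lists were mixed, and their counts stand against 8.9% of all tested miRNAs higher and 10.7% lower. Of 22 tested miRNAs known to be induced on T cell activation, 4 rose and 5 fell (median -0.05), the falls being the miR-132 and miR-212 products and miR-146b-5p and the rises miR-222-3p, miR-221-3p, miR-31-5p and miR-92a-3p. Of 20 known to be lost on activation, 7 rose and none fell (median 0.33, but -0.14 with STD scaling). They were let-7b-5p, let-7g-5p, miR-26b-5p, miR-150-5p, miR-181a-5p, miR-181b-5p and miR-342-3p. Of 16 regulators of Th2 cells only miR-10a-5p was called (median 0.01). In the core T cell set 3 of 12 rose and 1 fell, miR-142a-3p (median 0.17, or -0.30 with STD scaling and -0.0009 with library size alone). Of 6 tested Drosha-independent miRNAs 2 fell, miR-877-5p and miR-1981-3p (-0.64, adjusted p = 0.0432), with a median of -0.18. The miR-1981-3p call ended without WT replicate 1, 2 or 3 or AGO134-/- replicate 2 or 3, in DESeq2, with the day 14 libraries fitted alone or without a filter (-1.03 to -0.43 over the fits without 1 library). For comparison, the median over all 382 tested was 0.005. miR-451a, which needs AGO2 slicing for its maturation, had 0 counts in all 6 libraries. In the AGO2 slicing list of 3 miRNAs only 1 could be tested, miR-486a-5p, which was not called (0.40, or -0.03 with STD scaling).

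Of the 40 changes of at least 2-fold at day 14, 19 differed from the day 7 effect and 11 from the naive effect by the test of the difference. That test uses the same day 14 values by which the 40 were picked. These counts, and the numbers of day 14 calls among the differences below, therefore cannot show that large effects are particular to day 14. Naive cells and day 7 Th2 cells of the same genotypes (4 and 4 libraries each) gave 70 calls (18.3%, with 8.12% higher and 10.2% lower) and 54 calls (14.1%, with 8.64% higher and 5.5% lower). Of the 75 day 14 calls, 15 were also among the 54 at day 7 with the same direction, 19 among the 70 in naive cells, and 48 were called at neither. The test of the difference between the day 14 and the day 7 effect passed for 46 of 382 miRNAs (12.0%), 21 toward higher (5.5%) and 25 toward lower values at day 14 (6.54%), 30 of the 46 being day 14 calls. Against naive cells it passed for 26 (6.81%), 17 toward higher (4.45%) and 9 toward lower (2.36%), of which 19 were day 14 calls. AGO134-/- replicate 4 was the shallowest library at both earlier stages, with 64265 miRNA counts in naive cells (148455 to 243749 in the others) and 125803 at day 7 (182870 to 273723). Without it, in fits added after the values were seen, naive cells gave 46 calls (24 higher and 22 lower) and day 7 cells 24 (15 and 9). Of the day 14 calls, 15 were then also called in naive cells and 9 at day 7 with the same direction. The differences numbered 25 from naive cells, 21 of them among the 26 above, and 40 from day 7, 36 of them among the 46. Each difference between stages named in the next paragraphs was still called.

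miR-212-5p averaged 575 ± 56.6, 1196 ± 147 and 2553 ± 139 CPM in naive, day 7 and day 14 WT cells, and 376 ± 118, 1487 ± 356 and 467 ± 143 CPM in AGO134-/- cells (SD, n = 4, 4 and 3). In WT cells its mean was higher at each later stage, and in AGO134-/- cells it was highest at day 7. Its day 14 effect differed from the day 7 effect by -2.76 (SE 0.29, edgeR adjusted p = 6.45e-08) and from the naive effect by -1.93 (SE 0.30, adjusted p = 0.000135). Mean levels of miR-10a-5p at these stages were 515 ± 337, 147 ± 15.4 and 1559 ± 44 CPM in WT and 362 ± 116, 196 ± 63.1 and 324 ± 90.6 CPM in AGO134-/- cells. The difference from the day 7 effect was -2.65 (SE 0.45, edgeR adjusted p = 0.000153) and that from the naive effect was -1.85 (SE 0.42, adjusted p = 0.0048). The naive WT mean of miR-10a-5p was raised by replicate 1, with 273 counts against 77, 81 and 71 in replicates 2, 3 and 4. For miR-152-3p the WT means were 4.42 ± 3.29, 55.2 ± 27.4 and 956 ± 83 CPM and the AGO134-/- means 7.06 ± 10.7, 79.4 ± 49.1 and 219.8 ± 61.1 CPM. At day 14 WT cells thus carried far more miR-152-3p than at day 7, and AGO134-/- cells had gained less. Set against day 7, the effect differed by -2.46 (SE 0.48, edgeR adjusted p = 0.000734). miR-146b-5p averaged 182 ± 44.9, 344 ± 31.1 and 965 ± 64.5 CPM in naive, day 7 and day 14 WT cells, and 209 ± 38, 332 ± 80.8 and 311 ± 50.3 CPM in AGO134-/- cells (SD, n = 4, 4 and 3). Compared with day 7, the effect at day 14 differed by -1.62 (SE 0.26, edgeR adjusted p = 6.86e-05) and from the naive effect by -1.90 (SE 0.29, adjusted p = 0.000131). Mean levels of miR-130a-3p at these stages were 25.2 ± 12.2, 109 ± 25.5 and 420.3 ± 97.1 CPM in WT and 22.9 ± 13.6, 123 ± 33 and 130.5 ± 18.7 CPM in AGO134-/- cells. Its day 14 effect differed from the day 7 effect by -1.83 (SE 0.36, edgeR adjusted p = 0.000735). At day 7 the AGO134-/- mean of each of these 5 miRNAs was above the WT mean, except that of miR-146b-5p, which was slightly lower. From the miR-132 and miR-212 cluster, miR-132-5p was called higher at day 7 (0.67, edgeR adjusted p = 0.0189). Without AGO134-/- replicate 4 of day 7, miR-132-5p had 0.44 and adjusted p = 0.169. For miR-148a-3p the WT means were 2292 ± 461, 5590.2 ± 259 and 10666 ± 152 CPM and the AGO134-/- means 1879.7 ± 336, 7770.2 ± 1031 and 7195 ± 835 CPM. The day 7 value was called higher (0.47, adjusted p = 0.0166; without AGO134-/- replicate 4 of day 7, 0.43 and adjusted p = 0.0632) and the day 14 value lower. The difference from the day 7 effect was -1.04 (SE 0.20, edgeR adjusted p = 0.000734).

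Among the rises, miR-222-3p averaged 208 ± 22.2, 423 ± 22.5 and 387 ± 126 CPM in naive, day 7 and day 14 WT cells, and 166 ± 41.2, 447 ± 85.1 and 1155 ± 223 CPM in AGO134-/- cells (SD, n = 4, 4 and 3). Set against day 7, the effect differed by 1.52 (SE 0.27, edgeR adjusted p = 0.000176) and from the naive effect by 1.83 (SE 0.30, adjusted p = 0.000144). Mean levels of miR-181b-5p at these stages were 8165 ± 216, 1097 ± 61.7 and 219 ± 33.1 CPM in WT and 7282 ± 664, 929.6 ± 121 and 451 ± 67.1 CPM in AGO134-/- cells. Its means were lower at each later stage in both genotypes, and the WT mean was the higher one before day 14. Compared with day 7, the effect at day 14 differed by 1.29 (SE 0.21, edgeR adjusted p = 6.86e-05) and from the naive effect by 1.21 (SE 0.20, adjusted p = 0.000144). For miR-203-3p the WT means were 542 ± 46.5, 143 ± 18.6 and 39.5 ± 6.11 CPM and the AGO134-/- means 453 ± 115, 126 ± 32.6 and 118 ± 23.5 CPM. Its day 14 effect differed from the day 7 effect by 1.75 (SE 0.36, edgeR adjusted p = 0.000927) and from the naive effect by 1.78 (SE 0.33, adjusted p = 0.000808). miR-92a-1-5p averaged 2301 ± 193, 1540.1 ± 109 and 1559.9 ± 123 CPM in naive, day 7 and day 14 WT cells, and 2062 ± 445, 1559 ± 256 and 3356 ± 1021 CPM in AGO134-/- cells (SD, n = 4, 4 and 3). The difference from the day 7 effect was 1.09 (SE 0.25, edgeR adjusted p = 0.00341) and that from the naive effect was 1.24 (SE 0.25, adjusted p = 0.00158). miR-221-3p (1.38, adjusted p = 0.000803), miR-15b-3p (1.38, adjusted p = 0.000803) and miR-151-5p (1.04, adjusted p = 0.000824) also differed from day 7. For miR-15b-3p the day 14 value itself was 0.39 (adjusted p = 0.202) after -0.99 at day 7. miR-351-5p, level between genotypes at day 14 (0.01), differed from its naive value of -0.96 by 0.96 (adjusted p = 0.00158).

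**Figure D4:**
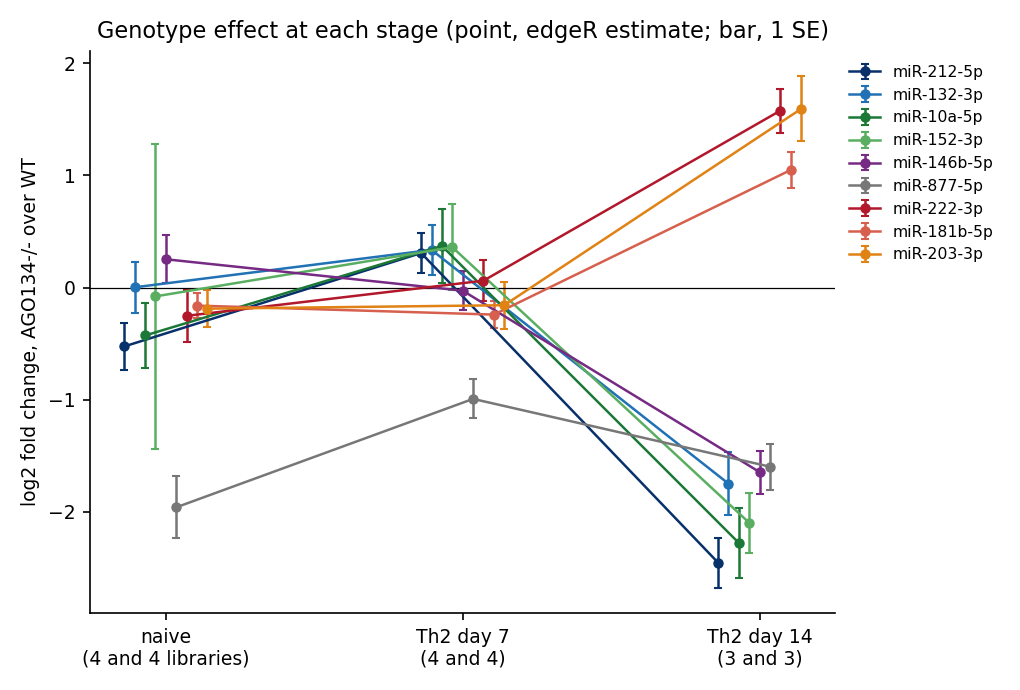
log2 fold change between AGO134-/- and WT cells (edgeR estimate, bar 1 SE) in naive cells, day 7 and day 14 Th2 cells for 9 miRNAs. miR-212-5p and miR-222-3p lie far from 0 at day 14 (-2.45 and 1.58) and nearer to it at the earlier stages, whereas miR-877-5p lies below 0 at all 3 stages.

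Other effects were present from the start. Called at all 3 stages were 9 miRNAs, each with 1 direction: miR-877-5p, miR-1934-5p, miR-3068-3p, miR-328-3p and miR-330-3p lower, and let-7g-5p, miR-30d-5p, miR-140-3p and miR-3963 higher, where miR-140-3p had -0.04 at day 14 with STD scaling. These 9 were chosen after their values were seen. Without the shallow replicate 4 of day 7, let-7g-5p, miR-140-3p, miR-1934-5p and miR-3963 were no longer called at day 7, and without that of naive cells miR-1934-5p was not called there. At day 14, only miR-877-5p, miR-328-3p and miR-330-3p of the 9 held under all 14 other settings, and let-7g-5p and miR-140-3p each held in 3. In WT libraries miR-328-3p stood at 1020.3, 1015 and 1018 CPM, and in AGO134-/- libraries at 607, 613 and 625 CPM. The log2 fold change of miR-328-3p was -0.73 with SE 0.16 (edgeR adjusted p = 0.00119). Its naive and day 7 values were -0.65 and -0.65. For miR-877-5p they were -1.96 and -0.99, against -1.60 at day 14. The test of the difference did not pass for either miRNA against day 7 (adjusted p = 0.875 and 0.159) or naive cells (adjusted p = 0.918 and 0.621), which does not show that the effects were equal.

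The arms of a hairpin allow a comparison that no library scaling affects. Both arms were tested for 94 hairpins. Both arms were called for 6 hairpins and moved the same way each time, lower for miR-132, miR-212, miR-33 and miR-148a and higher for miR-151 and miR-221, and 1 arm alone was called for 26. The log2 ratio of 5p to 3p counts, tested with limma and Benjamini-Hochberg adjustment, changed in 4 of 94 hairpins (4.26%), with 13 at an unadjusted p under 0.05.

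The clearest was miR-425, whose hairpin lies at chr9:108568777-108568861 in an exon of 4833445I07Rik and whose arms have the sequences shown here because they parted.
miR-425-5p: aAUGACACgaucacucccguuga
miR-425-3p: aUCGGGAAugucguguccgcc
The 3p arm fell and the 5p arm did not pass the test. miR-425-3p had levels of 1281, 1807 and 1561 CPM in WT and 503, 678 and 654 CPM in AGO134-/- libraries. For miR-425-3p this gave a log2 fold change of -1.34 (SE 0.22, adjusted p = 2.76e-05). miR-425-5p stood at 4225 ± 373 against 3445 ± 415 CPM in WT (SD, n = 3 and 3) (0.29, adjusted p = 0.213). The log2 ratio of 5p to 3p was 1.52, 1.03 and 0.93 in WT and 3.02, 2.77 and 2.59 in AGO134-/- libraries, so that it changed by 1.63 (SE 0.25, limma adjusted p = 0.000236). That call held in all 10 other settings of the arm test. miR-29a changed by -1.97 (adjusted p = 0.0469), with -7.40, -6.78 and -6.67 in WT and -8.65, -8.20 and -9.90 in AGO134-/- libraries, and rested on 1 to 14 counts of the 5p arm in a library. miR-331 changed by 1.07 (adjusted p = 0.0469) and miR-466m by -1.26 (adjusted p = 0.0469), the latter on at most 11 counts per arm and library. The 3 weaker calls each ended when 1 library was left out, for miR-466m in every such fit. For miR-29a this held without any WT library, AGO134-/- replicate 2 or 4 (values from -2.33 to -1.47 over the 6 fits), and for miR-331 without WT replicate 1 or 2, AGO134-/- replicate 2 or 4 (from 0.87 to 1.33). In miR-142a, a hairpin specific to blood cells, the 3p arm fell (-0.74, adjusted p = 0.0218) and the 5p arm had 0.002 (adjusted p = 0.998), but the ratio did not pass (0.75, adjusted p = 0.153). The miR-142a-3p call ended without WT replicate 3 or AGO134-/- replicate 3 or 4 (-0.99 to -0.55 over the fits without 1 library).

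**Figure D5:**
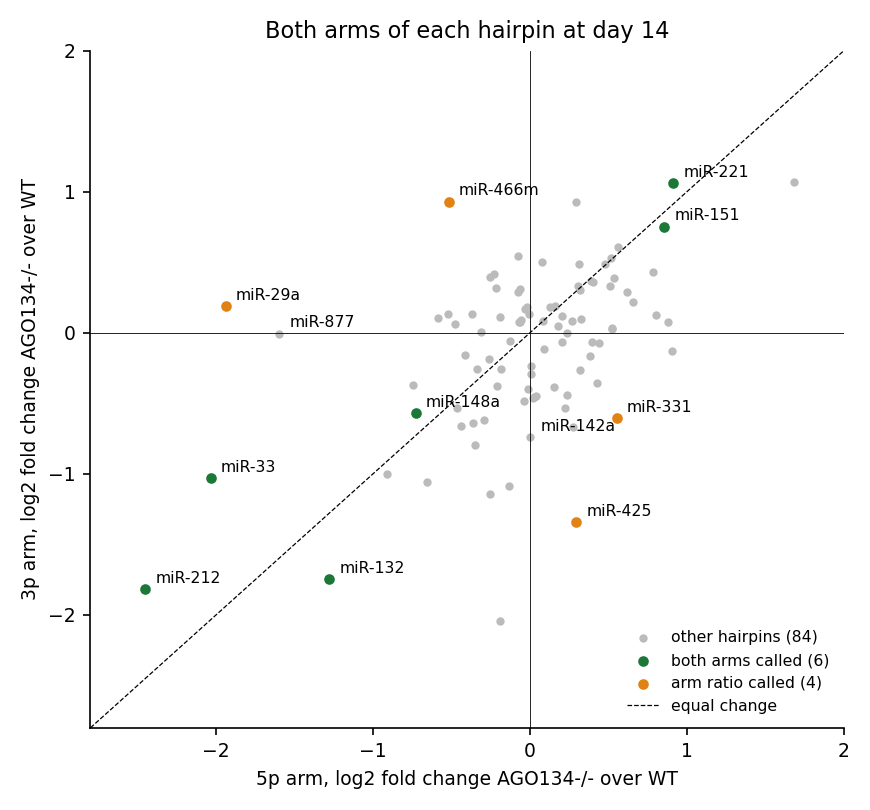
log2 fold change of the 3p arm against that of the 5p arm at day 14 for the 94 hairpins with both arms tested; the dashed line marks equal change. The 6 hairpins with both arms called lie in the lower left or upper right, and miR-425 lies far below it.

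Marker miRNAs of other cell types were looked at in the same libraries. Their summed levels are CPM without TMM, whereas the levels of single T cell miRNAs are CPM after TMM. T cell miRNAs were all present, miR-150-5p at 10390.3 ± 1982 CPM, miR-181a-5p at 2248 ± 402 CPM and miR-142a-3p at 2569.9 ± 606 CPM in WT. For myeloid cells, miR-223-3p had 3 counts in all 6 libraries together and miR-223-5p had 0. The red cell miRNAs miR-451a and miR-144-5p were at 0, and the summed level of 4 red cell and platelet markers ran from 162 to 228 CPM in WT and from 171 to 315 CPM in AGO134-/- libraries, nearly all of it miR-486a-5p. The 6 endothelial and stromal markers summed to between 527 and 740 CPM in WT and between 456 and 751 CPM in AGO134-/- libraries, with miR-145a-5p at 0. The 4 liver and muscle markers summed to between 30.4 and 56.6 and between 29.4 and 56.2 CPM, with miR-133a-3p at 0. The 7 epithelial markers summed to between 626 and 722 CPM in WT and between 699.6 and 881 CPM in AGO134-/- libraries. Of the 6 of these that could be tested only miR-203-3p was called, with 1 of the 7, miR-205-5p, at 3 counts in all. Their part in the rise of miR-203-3p was not tested.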

How the data were processed

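Small RNA of 36 mouse CD4 T cell libraries was sequenced by the authors, with TruSeq single-end reads per the labels' protocols and paired-end reads per the series text. The deposited values are whole-number counts per mature miRNA locus, per the file headers, on GRCm38 (build per the submitters' processing notes). No source used here names the aligner, the counter, the miRNA release or the use of strand. Entries named STD entered neither library sizes nor tests. For a name with several locus entries the entry with the highest total was used, leaving 1966 names. Of 82 names with several loci, 61 had counts, and for 53 of these the locus totals lay within 10%.

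The genotype effect at day 14 was fitted with edgeR 4.0.16 (quasi-likelihood test, TMM, filterByExpr with a minimum of 10 counts) in R 4.3.3 on the 22 libraries of the AGO1/AGO3/AGO4 experiment with a mean per group, which share 1 estimate of the spread, and p-values were adjusted by Benjamini-Hochberg over 382 miRNAs. Levels are CPM after TMM, except the limit of 3 counts and the summed marker levels, which are CPM without TMM. SE is the error the test implies. Differences between stages were contrasts of the same fit. Arm ratios were log2 ratios of 5p to 3p counts plus 0.5, tested with limma 3.58.1. Hairpin positions are from RefSeq (GRCm38.p6), and the genes around them from GENCODE M21 (GRCm38). The scripts were tested on simulated data. Replicate pairs differed by more than sampling noise, so each library counts once. Day 14 libraries held 177814 to 265008 miRNA counts, and miRNAs near 3 counts are the least precise.

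Alternatives were other scalings, no filter, all locus entries, DESeq2 1.42.0, the day 14 libraries alone, a replicate block and leaving out each day 14 library. Leaving out the shallowest naive and day 7 library was added after the data were seen. The text names the 15 largest rises and 15 largest falls at 10 CPM or more and the called members of the short clusters. Of the tested cluster members that were not called it names only some. It also names called members of longer lists, the 5 smallest p per direction for each difference of stages and the called arm ratios. Members and lists were chosen with earlier results of these data known. No set test was run. Members not named singly are covered by the counts of their group where such counts are given.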

Additional observations from a re-analysis of the deposited data

Results flagged for a closer look

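For the named miRNAs below, the effect of the AGO134-/- genotype at day 14 differed from the effect in day 7 cells by the interaction contrast of the edgeR fit. Values are the day 14 minus the day 7 log2 fold change. From the miR-132 and miR-212 cluster the differences were -1.95 for miR-132-5p, -2.08 for miR-132-3p, -2.76 for miR-212-5p and -2.32 for miR-212-3p. Adjusted p-values ran from 6.45e-08 to 0.000153. Other miRNAs called lower at day 14 gave miR-10a-5p -2.65, miR-152-3p -2.46, miR-130a-3p -1.83, miR-146b-5p -1.62, miR-148a-3p -1.04, miR-24-2-5p -0.98, miR-29a-5p -2.62, miR-142a-3p -1.05, miR-301b-3p -0.89 and miR-298-5p -0.94. Adjusted p-values ran from 6.86e-05 to 0.0471. miRNAs called higher at day 14 gave miR-222-3p 1.52, miR-221-3p 1.38, miR-221-5p 1.05, miR-181b-5p 1.29, miR-181a-5p 0.93, miR-203-3p 1.75, miR-1941-5p 2.50, miR-92a-1-5p 1.09, miR-151-5p 1.04, miR-151-3p 1.24, miR-31-5p 0.82, miR-1198-5p 0.67 and miR-15b-5p 0.55. Adjusted p-values ran from 6.86e-05 to 0.0466. A further group passed this test without being called at day 14, with differences of miR-15b-3p 1.38, miR-27a-3p -0.76, miR-125a-3p -1.06, miR-98-5p -0.56, miR-23a-3p -0.54, miR-155-5p -0.64, miR-99b-5p -0.75 and miR-23b-3p -0.53. Adjusted p-values ran from 0.000803 to 0.0455. In that last group the day 7 values of miR-27a-3p (0.70), miR-155-5p (0.52), miR-23a-3p (0.54) and miR-23b-3p (0.47) were positive, and the day 14 values were -0.07, -0.12, -0.001 and -0.06 in the same order, none of them called. Without AGO134-/- replicate 4 of day 7, the shallowest library of that stage, the differences of miR-155-5p (-0.55), miR-15b-5p (0.53), miR-23b-3p (-0.50) and miR-99b-5p (-0.63) no longer passed (edgeR adjusted p from 0.0505 to 0.075).

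Against naive cells the same contrast was called for miR-146b-5p -1.90, miR-212-5p -1.93, miR-222-3p 1.83, miR-181b-5p 1.21, miR-203-3p 1.78, miR-92a-1-5p 1.24, miR-351-5p 0.96, miR-132-3p -1.75, miR-29a-5p -3.12 and miR-10a-5p -1.85, with adjusted p-values from 0.000131 to 0.0048. For miR-351-5p the difference lay in naive cells, where its effect was -0.96. Without AGO134-/- replicate 4 of naive cells miR-29a-5p fell under the count filter and was not tested, and the other 9 differences from naive cells given here still passed.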

How the results depend on the processing

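Of the 75 calls at day 14, 24 held under all 14 other settings of that fit. Scaling to STD counts left 2 higher and 72 lower calls, turned 2 rises negative (miR-140-3p at -0.042 and miR-93-5p at -0.12) and shared 43 of the 75 calls, and library size alone gave 22 higher and 54 lower calls, sharing 63. The split of higher against lower calls was 24 to 48 with DESeq2 size factors, 25 to 53 with all locus entries, 26 to 42 without a filter, 35 to 37 with the day 14 libraries fitted alone and 23 to 39 in DESeq2. Without 1 library it ran from 23 to 31 higher and from 27 to 39 lower calls, with the 27 reached without AGO134-/- replicate 3, and each such fit shared between 52 and 58 of the 75 calls.

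The differences from day 7 numbered 15 with STD scaling (7 toward higher and 8 toward lower values), and those toward lower values 14 with library size alone. Leaving out WT replicate 3 gave 30 differences in all, with 14 toward lower values, and over the 6 fits without 1 library the total ran from 30 to 47, with 16 to 27 toward higher and 14 to 20 toward lower values. Differences from naive cells numbered 12 with STD scaling (9 and 3), and those toward lower values 15 with DESeq2 size factors. Without 1 library they ran from 23 to 34, with 15 to 22 toward higher and 8 to 12 toward lower values. Arm ratios were called in 1 hairpin when both arms had 50 counts or more, in 5 with the day 14 libraries alone, in 3 with a pseudocount of 2 and in 1 to 3 without 1 library. The cause of these shifts was not tested.

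Replicate numbers 2 and 3 occur in both genotypes, but same-numbered libraries did not deviate together (r = -0.094 for number 2 and -0.002 for number 3 over 382 miRNAs), so the number was not taken to pair the samples. With a replicate block the fit called 29 higher and 35 lower miRNAs, 20 and 25 differences from day 7, 22 and 12 from naive cells, and 2 arm ratios. Depth limits the rarer miRNAs, as 14 of the 40 that changed at least 2-fold were under 100 CPM in both groups.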

Other observations

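The calls whose day 14 effects were not given above were 12 falls and 6 rises, picked here after their values were seen. miR-34a-5p, which p53 induces, fell by 0.83 on the log2 scale, although WT replicate 2 (261 CPM) lay within the range of the AGO134-/- libraries (209 to 322 CPM). miR-1983 stood at 313 ± 59 against 657 ± 50.7 CPM in AGO134-/- and WT cells (SD, n = 3 and 3), and miR-504-5p at 193 ± 33.2 against 389 ± 27.5 CPM. The log2 fold changes of the other falls were miR-1934-5p (-1.47), miR-3057-5p (-1.32), miR-1948-3p (-1.13), miR-669h-5p (-1.09), miR-32-3p (-1.08), miR-1983 (-1.07), miR-504-5p (-1.02), miR-330-3p (-0.79), miR-1843a-3p (-0.66) and miR-3068-3p (-0.62). miR-378a-3p, from an intron of the metabolic regulator Ppargc1b, stood at 3766 ± 340.2 against 2473 ± 37.8 CPM. miR-345-3p fell to 40.0 from 85.0 CPM. The rises were miR-378a-3p (0.61), miR-5099 (0.63), miR-3963 (0.63), let-7j (0.59), miR-331-5p (0.55) and miR-140-3p (0.42), of which that of miR-140-3p turned to -0.04 with STD scaling. miR-1983, miR-504-5p and miR-330-3p held under all 14 other settings, and miR-378a-3p, miR-5099 and miR-3963 under all except STD scaling. Calls that ended in fits without 1 library are given with the range over those fits. The miR-32-3p call ended in each of the 6 (-1.12 to -0.995). Those of miR-345-3p (-1.24 to -0.73, lost in 5 of the 6), miR-34a-5p (-1.12 to -0.63, in 4), miR-1843a-3p (-0.94 to -0.38, in 4) and miR-3068-3p (-0.83 to -0.41, in 4) also ended with the day 14 libraries fitted alone. The calls of miR-345-3p and miR-34a-5p ended in DESeq2 too, and those of miR-345-3p, miR-1843a-3p and miR-3068-3p without a filter. Other falls lost in some of the 6 were miR-669h-5p (-1.32 to -0.75), miR-1948-3p (-1.39 to -0.76), miR-3057-5p (-1.57 to -0.96) and miR-1934-5p (-1.71 to -1.22, without AGO134-/- replicate 3). The miR-669h-5p call also ended with the day 14 libraries fitted alone, and that of miR-1948-3p in DESeq2. Of the rises, miR-331-5p (0.31 to 0.73) held in 2 and miR-140-3p (0.32 to 0.49) in 3 of the 14 settings, and let-7j ended with library size alone or without a filter.

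Calls were also split by chromosome, after the values were seen. The 41 lower calls include some without a single assigned locus, which are left out here. Chromosome 11 held 9 lower calls and no higher call among its 32 tested miRNAs with a single locus (28.1% lower). The other chromosomes held 27 lower calls among 253 such miRNAs (10.7%), but they differed among themselves. Lower calls were 3 of 12 on chromosome 2, 3 of 12 on chromosome 12, 3 of 13 on chromosome 6 and 3 of 15 on chromosome 7. Chromosomes 3, 5, 14 and 16 held no lower call. Higher calls were absent from chromosomes 2, 6, 7, 13, 16 and 19 as well. The 9 lower calls of chromosome 11 came from 7 of its 23 tested hairpins, so products of 1 hairpin or cluster count more than once. Hairpins with a lower call were 3 of 10 on chromosome 2, 3 of 8 on chromosome 12, 2 of 9 on chromosome 6 and 3 of 12 on chromosome 7. No hairpin share over all other chromosomes is given. Its median log2 fold change was -0.29 at day 14 and 0.15 at day 7, against 0.008 and -0.01 on the other chromosomes. These counts are a description with no test.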
